A study of Mus musculus with 8 samples.

Results

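The C-type lectin, Ms4a and Siglec genes were described in RNA from isolated mouse white adipocytes. They were taken by symbol, as the protein-coding genes whose symbols begin with Clec or Ms4a followed by a digit, or with Siglec. This gave 48 of the 30387 genes in the table (17824 of them protein coding), namely 26 Clec, 16 Ms4a and 6 Siglec genes. The cells were isolated from epididymal fat pads of 2 genotypes, wild-type littermates (WT) and Ad-Yap/Taz-KO. The latter are homozygous for floxed Yap and Taz alleles (Yap fl/fl and Taz fl/fl) and carry Adipoq-Cre, so that Cre under the adiponectin promoter removes the genes for YAP and TAZ in adipocytes, while cells that do not express adiponectin keep them. The labels call the littermates wild type, and the study's methods name littermates with the floxed alleles as controls of mice given tamoxifen, so whether the WT mice here carried floxed alleles is not clear from the sources used here. The mice were fed SD, named normal chow in the sample labels, or HFD over 4 weeks, and the description of the data set starts the diets at week 5 of age, whereas the study's methods give a later start for its mice in general. Each of the 4 groups (WT SD, Ad-Yap/Taz-KO SD, WT HFD and Ad-Yap/Taz-KO HFD) has 2 libraries.

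The 3 families are known mainly from immune cells. C-type lectin receptors carry a carbohydrate-recognition fold and bind glycans, glycolipids or proteins of microbes and of dead cells. Many activating ones pair with the adaptors FcRgamma (Fcer1g) or DAP12 (Tyrobp), while CLEC-2 (Clec1b) and DNGR-1 (Clec9a) carry a signalling motif of their own. Both routes recruit the kinase SYK and can lead, through CARD9, to cytokine expression, whereas the inhibitory receptors recruit the phosphatases SHP-1 (Ptpn6) and SHP-2 (Ptpn11). Ms4a proteins cross the membrane several times and associate with other receptors, and the best known are CD20 of B cells (Ms4a1) and the beta chain of the high-affinity IgE receptor of mast cells (Ms4a2). Siglecs bind sialic acid on neighbouring cells. In fat, macrophages carry many of these receptors, while other members named by the same rule belong to the endothelium (Clec14a, Clec1a), to stromal cells (Clec3b, tetranectin) or to nearly every cell (Clec16a, a regulator of mitophagy that is no carbohydrate receptor).

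Values are normalized counts, the reads on a gene divided by 1 size factor per library, and 1 read was worth between 0.795 and 1.135 normalized counts. The libraries held 14.0 to 22.3 M reads on genes. A value of 0 allows up to 3 reads, which is 2.39 to 3.41 normalized counts, and this covers counting error only. Wwtr1, which encodes TAZ, lay at 5594 and 4743 in WT SD, 2441 and 1957 in Ad-Yap/Taz-KO SD, 7121 and 6807 in WT HFD, and 2060 and 2707 in Ad-Yap/Taz-KO HFD, with a log2 fold change between genotypes of -1.24 on SD and -1.56 on HFD. Yap1 lay at 2776 and 2717, 1669 and 1699, 2468 and 2333, and 1549 and 2068 in the same order. Its log2 fold change was -0.71 on SD (adjusted p = 0.024) and -0.42 on HFD (adjusted p = 0.059, not called). At 1000 to 5000 normalized counts the pair of WT HFD libraries lay closer together than the other pairs, with squared differences 5.87 times those of Poisson counting against 25.8 to 82.8 times in the other groups. At 5 to 20 normalized counts it did not (4.74 times, against 4.64 to 6.28). The study describes the libraries of a group as separate mice, which the values alone cannot show, so calls that end when they are averaged to 1 sample are named.

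Of the 48 members, 31 reached 5 normalized counts on average over all libraries and were tested (21 Clec, 8 Ms4a and 2 Siglec genes). A gene was called at a limma adjusted p of at most 0.05 and an absolute log2 fold change of at least 0.59. Of the members, 23 were called in at least 1 of 5 comparisons and 8 in none of them (Clec11a, Clec12b, Clec1b, Clec2i, Clec4n, Clec5a, Clec9a and Ms4a4b). Per kilobase of exon and averaged over all libraries, the highest levels were those of Clec2d (1527 normalized counts per kb), Clec3b (861) and Clec16a (126), followed by Clec10a (101), Ms4a7 (96.6) and Clec12a (91.3). The order differed between groups. In WT SD, Clec1a (58.5), Ms4a4d (54.2) and Clec14a (49.7) lay above Clec10a (46.2), in Ad-Yap/Taz-KO SD Clec4d (168) was the third, and in Ad-Yap/Taz-KO HFD Clec3b (1630) lay above Clec2d (788).

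**Figure D1:**
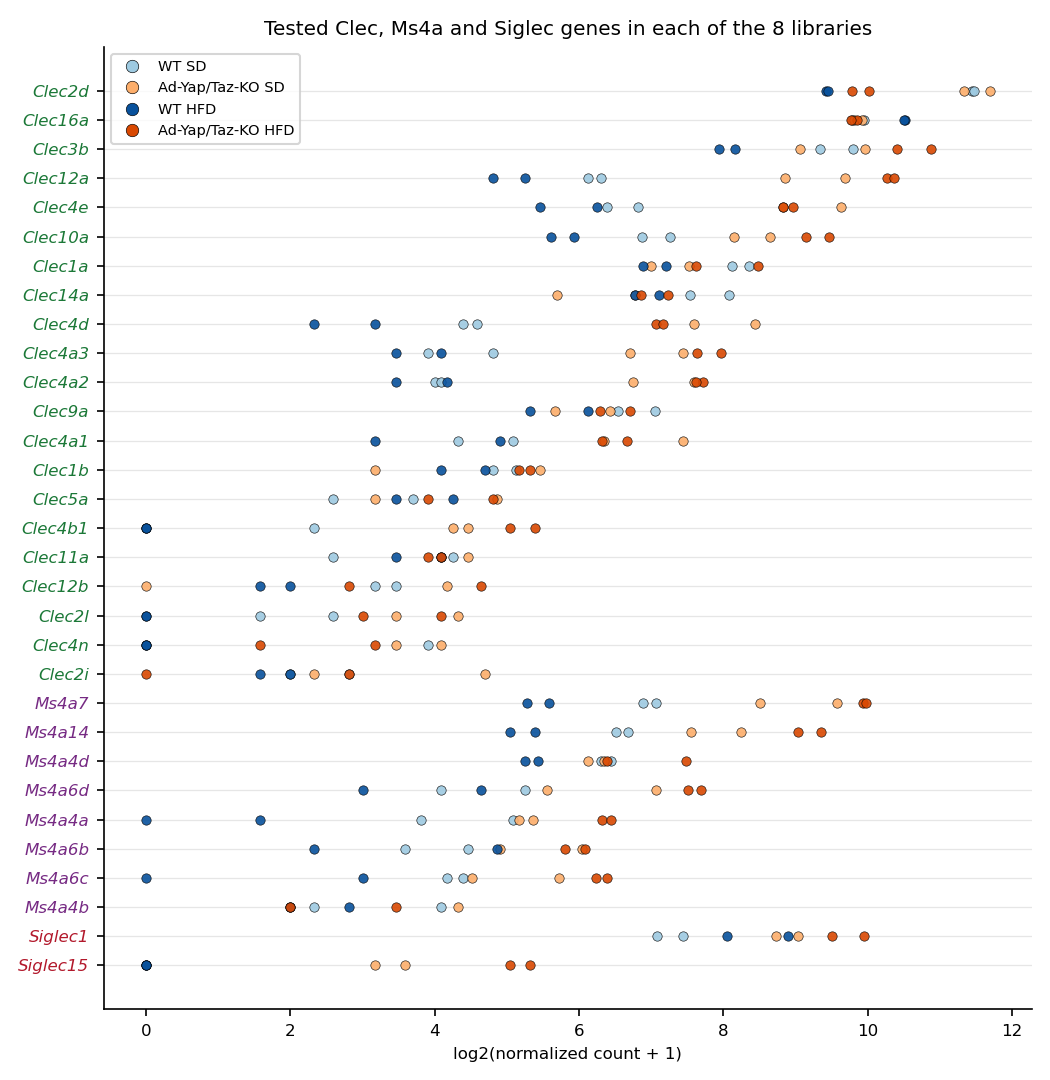
Each point is 1 library, placed by log2(normalized count + 1) on the horizontal axis, for the 31 tested genes on the vertical axis, coloured by group. In 13 genes, from Clec10a and Clec12a to Ms4a7 and Siglec15, the Ad-Yap/Taz-KO HFD libraries lie to the right of the 6 others, whereas in Clec2d the 4 SD libraries are the highest.

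On HFD, 20 members rose and 1 fell in Ad-Yap/Taz-KO adipocytes against WT. Of all 18800 genes tested, 17.1% were called higher and 15.1% lower in this comparison. The risers were 11 Clec genes, 7 of the 8 tested Ms4a genes and both tested Siglec genes, and the gene that fell was Clec16a. The median log2 fold change was 2.45 over the 31 tested members and 0.09 over all genes tested. On SD, 9 members rose and 1 fell (Clec14a), against 3.21% and 1.5% of all genes, with a median of 1.30 against -0.01. The 9 risers on SD (Clec10a, Clec12a, Clec4a2, Clec4a3, Clec4d, Clec4e, Ms4a14, Ms4a7 and Siglec1) were also called higher on HFD. In 13 of the 31 tested members the Ad-Yap/Taz-KO HFD libraries lay above all 6 others, which held for 11.5% of all genes tested. Siglec15, one of these 13 and one of the risers, reached the mean of 5 only through its Ad-Yap/Taz-KO HFD values. These were 39 and 32, against 0 to 11 in the other libraries, so its place in both counts was partly set by the filter. On HFD, Clec1a, Clec2l, Ms4a4d and Ms4a6b lost their calls with the WT HFD libraries averaged, and also without 1 or more single libraries, as did Clec4a1 (without the first WT HFD or the second Ad-Yap/Taz-KO HFD library, log2 1.58 to 3.32 over all such fits) and Siglec1 (without the first WT HFD library, 0.82 to 1.68). Over these fits the values ran from 0.57 to 1.43 for Clec1a, 3 to 4.09 for Clec2l, 1.055 to 2.14 for Ms4a4d and 1.09 to 3.63 for Ms4a6b. On SD, 5 members were called without the second WT SD library (Clec12a, Clec4a2, Clec4d, Clec4e and Ms4a7), where 381 of all genes were called in place of 886.

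General macrophage markers moved with these genes. The 16 markers (Adgre1, Csf1r, Cd68, Lyz2 and others) summed to 6827 and 6474 normalized counts in WT SD, 44036 and 26006 in Ad-Yap/Taz-KO SD, 3808 and 3830 in WT HFD, and 51215 and 45467 in Ad-Yap/Taz-KO HFD. Of them, 15 rose on HFD and 14 on SD between genotypes (17.1% and 3.21% of all genes), and the mean log2 fold change over all 16 was 4.07 and 2.21. Mertk, which lay between 780 and 1291 in all libraries, was called on neither diet. None of the 16 was at 0 in all libraries. In bulk samples, more cells of a type and more RNA per cell cannot be told apart. The part of the macrophage markers in the results below was not tested beyond the values given relative to them.

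The Dectin-2 cluster on chromosome 6 (GRCm38 chr6:122921848-123289870) holds 8 members next to each other. Clec4n (Dectin-2), Clec4d (MCL) and Clec4e (Mincle) bind microbial and cell-derived glycolipids or glycans and signal through FcRgamma, Clec4b1 (DCAR) also pairs with FcRgamma, and Clec4a1 to Clec4a4 form the DCIR group, in which Clec4a2 (DCIR1) carries an inhibitory motif. In Clec4e the values were 83 and 112 in WT SD, 792 and 452 in Ad-Yap/Taz-KO SD, 43 and 75 in WT HFD, and 497 and 452 in Ad-Yap/Taz-KO HFD. The knockout libraries were above the WT libraries on both diets, by 2.62 ± 0.33 (SE) on SD (log2, adjusted p = 0.00047) and by 3.04 ± 0.33 on HFD (adjusted p = 2.7e-05). Clec4d lay at 20 and 23, 345 and 192, 8 and 4, and 133 and 143 in the same order of groups. It rose by 3.52 ± 0.49 on SD and by 4.37 ± 0.49 on HFD (log2, adjusted p = 0.00083 and 3e-05).

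In both genes the highest library was from Ad-Yap/Taz-KO on SD, not on HFD. The difference between diets within the knockout was not called (log2 HFD against SD -0.34 for Clec4e, adjusted p = 0.68, and -0.90 for Clec4d, adjusted p = 0.4). Without single libraries it ran from -0.74 to 0.07 for Clec4e and from -1.32 to -0.47 for Clec4d. In both genes the first Ad-Yap/Taz-KO SD library held the higher value of the pair. The summed macrophage markers, in contrast, were highest in Ad-Yap/Taz-KO HFD. Scaled to the mean log2 level of the 16 macrophage markers in each library, Clec4e was lower on HFD than on SD in the knockout by -1.09 ± 0.39 (adjusted p = 0.027) and Clec4d by -1.65 ± 0.58 (adjusted p = 0.024). On this scale, 4 members were called lower and none higher (0 also at an unadjusted p under 0.05) with the diet in the knockout, against 25.9% and 0.176% of all genes, and the others were Clec2d and Clec16a.

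Of the DCIR genes, Clec4a2 and Clec4a3 rose in the knockout on both diets. Clec4a2 lay at 15 and 16 in WT SD, 192 and 106 in Ad-Yap/Taz-KO SD, 10 and 17 in WT HFD, and 210 and 195 in Ad-Yap/Taz-KO HFD, a rise of 3.12 ± 0.47 on SD and 3.85 ± 0.47 on HFD (log2, adjusted p = 0.0015 and 6e-05). Clec4a3 (DCIR3) lay at 27 and 14, 173 and 103, 10 and 16, and 197 and 250 in the same order, a rise of 2.71 ± 0.49 on SD and 4.03 ± 0.49 on HFD. Clec4a1 (DCIR4) lay at 19 and 33, 173 and 80, 8 and 29, and 79 and 100. It rose on HFD (log2 2.45 ± 0.62, adjusted p = 0.0088), while on SD the change of 2.19 was not called (adjusted p = 0.069), although the groups do not overlap. Clec4b1 was listed at 4 and 0 in WT SD, 21 and 18 in Ad-Yap/Taz-KO SD, 0 and 0 in WT HFD, and 32 and 41 in Ad-Yap/Taz-KO HFD, which is at least 12.2-fold higher in the knockout on HFD when 3 reads are set in each WT library. Clec4n stayed between 0 and 16 normalized counts and was not called, and Clec4a4 did not exceed 5. These genes are close paralogs, and reads that aligned to several places had been left out, so the split among them is uncertain.

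The promoter sequences below, from RefSeq, are the 250 bases before the start of the 6 genes of this cluster that rose in the knockout on HFD, printed because neighbours that moved together can be compared in them. Clec4a3 has 2 starts in RefSeq, and the start of Clec4a2 lies 16262 bases inside the gene as annotated. Each is given 5′ to 3′ on the strand of the gene, and capitals mark the letters GAGGAA or their reverse complement TTCCTC, the core of many binding sites of PU.1, a transcription factor of myeloid cells. The window of Clec4a2 and the first of Clec4a3 hold no match.
Clec4a1, GRCm38.p6 chr6:122921598-122921847, plus strand: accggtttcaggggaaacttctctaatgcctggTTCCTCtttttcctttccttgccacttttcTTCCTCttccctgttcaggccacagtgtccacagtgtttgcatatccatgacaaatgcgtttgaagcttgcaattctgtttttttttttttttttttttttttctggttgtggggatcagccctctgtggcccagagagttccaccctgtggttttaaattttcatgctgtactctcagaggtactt
Clec4a2, GRCm38.p6 chr6:123122440-123122689, plus strand: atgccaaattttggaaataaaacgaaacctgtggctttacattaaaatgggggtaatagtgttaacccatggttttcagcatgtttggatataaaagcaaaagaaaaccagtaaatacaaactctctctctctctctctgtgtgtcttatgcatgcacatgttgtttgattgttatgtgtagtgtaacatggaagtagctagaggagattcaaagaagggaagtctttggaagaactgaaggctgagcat
Clec4a3, GRCm38.p6 chr6:122952265-122952514, plus strand: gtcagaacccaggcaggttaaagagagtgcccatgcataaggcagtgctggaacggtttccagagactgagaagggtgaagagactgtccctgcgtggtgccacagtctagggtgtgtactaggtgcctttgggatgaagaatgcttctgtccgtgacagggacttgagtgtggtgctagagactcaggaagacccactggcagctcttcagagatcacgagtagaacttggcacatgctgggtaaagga
Clec4a3, GRCm38.p6 chr6:122952394-122952643, plus strand: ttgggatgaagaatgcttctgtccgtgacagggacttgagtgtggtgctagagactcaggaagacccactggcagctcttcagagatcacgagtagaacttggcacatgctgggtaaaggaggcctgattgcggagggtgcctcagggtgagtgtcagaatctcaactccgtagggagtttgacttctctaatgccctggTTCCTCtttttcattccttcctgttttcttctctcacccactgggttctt
Clec4b1, GRCm38.p6 chr6:123049712-123049961, plus strand: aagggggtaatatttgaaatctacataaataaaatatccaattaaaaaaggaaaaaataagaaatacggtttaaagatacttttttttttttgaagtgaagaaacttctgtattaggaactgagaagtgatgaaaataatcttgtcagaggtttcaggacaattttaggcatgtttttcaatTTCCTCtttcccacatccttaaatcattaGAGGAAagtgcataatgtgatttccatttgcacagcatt
Clec4d, GRCm38.p6 chr6:123261857-123262106, plus strand: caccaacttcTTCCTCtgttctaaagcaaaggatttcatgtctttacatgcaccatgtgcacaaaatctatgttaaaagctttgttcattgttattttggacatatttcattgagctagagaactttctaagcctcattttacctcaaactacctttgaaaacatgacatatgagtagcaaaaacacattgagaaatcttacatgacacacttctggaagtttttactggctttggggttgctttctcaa
Clec4e, GRCm38.p6 chr6:123289872-123290121, minus strand: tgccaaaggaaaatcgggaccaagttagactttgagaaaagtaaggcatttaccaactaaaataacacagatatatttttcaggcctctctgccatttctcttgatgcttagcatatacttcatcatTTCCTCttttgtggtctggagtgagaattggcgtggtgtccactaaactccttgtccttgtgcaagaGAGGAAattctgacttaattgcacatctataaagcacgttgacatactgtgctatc

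RefSeq promoters (250 bases before to 50 after a start) were matched by symbol for 38 of the 48 members, some of them more than once. GAGGAA, on either strand, was found in 22 of the 38 (57.9%) and in 31.3% of all 27025 genes with a promoter. It was found in 9 of the 14 matched members that rose on HFD (64.3%) and in 5 of the 10 other tested members (50%). TGANTCA, an AP-1 motif, was found in 10 of 38 (26.3%, against 8.97% of all genes). GGAATG, a TEAD motif, was found in 5 of 38 (13.2%, against 16.6%), and TCANGTGA, a motif of the MiT/TFE factors, in 1 of 38 (2.63%, against 4.78%). TGANTCA was found in 4 of the 14 risers (28.6%) and 1 of the 10 others (10%). GGAATG was found in 3 of the 14 (21.4%) and 2 of the 10 (20%), and TCANGTGA in none of them. The 4 motifs were searched independently, so matches may overlap, and paralogs share ancestry, so the promoters are not independent. A match describes letters in the window and no bound factor.

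Further along chromosome 6, the natural killer gene complex holds other members. Clec12a (MICL, chr6:129342691-129365303) is an inhibitory receptor of myeloid cells that recognizes uric acid crystals. It lay at 69 and 78 normalized counts in WT SD, 821 and 460 in Ad-Yap/Taz-KO SD, 37 and 27 in WT HFD, and 1231 and 1315 in Ad-Yap/Taz-KO HFD. The groups do not overlap in any comparison, and the rise in the knockout was 3.05 ± 0.30 on SD (log2, adjusted p = 6e-05) and 5.29 ± 0.30 on HFD (adjusted p = 1.2e-07). Clec12a had the smallest adjusted p of the members in both comparisons. Its neighbour Clec12b, also with an inhibitory motif, lay between 0 and 24 and was not called.

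Clec2d (Clr-b, chr6:129180615-129186534), a ligand for the inhibitory receptor NKR-P1B (Klrb1b) of natural killer cells, had the highest level per length of all members over all libraries and followed the diet. It lay at 2794 and 2839 in WT SD, 2578 and 3309 in Ad-Yap/Taz-KO SD, 688 and 698 in WT HFD, and 1032 and 880 in Ad-Yap/Taz-KO HFD. All 4 HFD libraries were below all 4 SD libraries. It fell with HFD by 2.02 ± 0.16 in WT (log2, adjusted p = 3.9e-05) and by 1.61 ± 0.16 in the knockout (adjusted p = 0.0011). Between genotypes its log2 fold change was 0.05 on SD (adjusted p = 0.91) and 0.46 on HFD, where the adjusted p was 0.047 but the size missed the limit of a call. Clec2d was the only member called between diets in the knockout (0.691% of all genes were called lower and 0.383% higher), and the 2 alternatives that lost this call were testing without a filter on low values and a fit of the knockout libraries alone. The receptor gene Klrb1b lay between 0 and 18 normalized counts. The other Clec2 genes (Clec2i, Clec2l, Clec2e and Clec2g) did not exceed 25 in any library.

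Clec2l was the one Clec2 gene called higher in the knockout on HFD (0 and 0 against 7 and 16 normalized counts, at least 3.83-fold with 3 reads in each WT library), a call that ended when the WT HFD libraries were averaged (adjusted p = 0.081) and with a pseudocount of 8 (adjusted p = 0.059). On SD it lay at 2 and 5 in WT and at 10 and 19 in the knockout and was not called. Clec1b (CLEC-2, the platelet receptor for podoplanin) lay between 8 and 43 and was not called, and Clec9a (DNGR-1, a receptor of type 1 dendritic cells for exposed actin) lay at 92 and 132 in WT SD, 85 and 50 in Ad-Yap/Taz-KO SD, 39 and 69 in WT HFD, and 77 and 103 in Ad-Yap/Taz-KO HFD and was not called, with a log2 fold change of -0.75 on SD and 0.77 on HFD. The exons of these 2 genes overlap on the same strand over 3.61% and 5.59% of their length. Clec5a (MDL-1), which signals through DAP12, lay between 5 and 28 and was not called.

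On chromosome 11, Clec10a (MGL1, chr11:70156197-70170834), a receptor for terminal galactose and N-acetylgalactosamine on macrophages and dendritic cells, lay at 116 and 152 in WT SD, 399 and 283 in Ad-Yap/Taz-KO SD, 60 and 48 in WT HFD, and 566 and 708 in Ad-Yap/Taz-KO HFD. It rose in the knockout by 1.33 ± 0.28 on SD (log2, adjusted p = 0.014) and by 3.54 ± 0.28 on HFD (adjusted p = 1.6e-06). On SD, Clec10a ran from 1.09 to 1.58 without single libraries and lost its call with no filter and in a fit of the SD groups alone. Its paralog Mgl2 (MGL2), which the symbol rule does not take, lay at 71 and 140, 63 and 51, 52 and 49, and 20 and 40 in the same order of groups. The change of Mgl2 on HFD was -0.81 and was not called.

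The Ms4a genes sit in 1 cluster on chromosome 19 (chr19:10978307-11640851). Ms4a7 and Ms4a14 had the highest levels among them, and Ms4a7, a gene of macrophages, lay at 133 and 117 in WT SD, 764 and 363 in Ad-Yap/Taz-KO SD, 47 and 38 in WT HFD, and 977 and 1004 in Ad-Yap/Taz-KO HFD. The knockout was above WT by 2.07 ± 0.31 on SD (log2, adjusted p = 0.0016) and by 4.52 ± 0.31 on HFD (adjusted p = 6.3e-07). Ms4a14 lay at 90 and 101, 301 and 186, 32 and 41, and 524 and 651 in the same order. It rose by 1.30 ± 0.31 on SD (adjusted p = 0.03) and by 3.97 ± 0.31 on HFD (adjusted p = 1.5e-06). The change of Ms4a14 on SD ran from 0.96 to 1.65 without single libraries. Its call on SD ended with no filter, with scaling to the same total and in a fit of the SD groups alone.

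The other 5 Ms4a risers rose on HFD but were not called on SD. Ms4a4a, a tetraspan gene of alternatively activated macrophages, lay at 13 and 33 in WT SD, 40 and 35 in Ad-Yap/Taz-KO SD, 2 and 0 in WT HFD, and 79 and 86 in Ad-Yap/Taz-KO HFD (log2 0.82 on SD, adjusted p = 0.65, and 5.59 ± 0.76 on HFD, adjusted p = 0.00014). Ms4a6c lay at 17 and 20, 52 and 22, 7 and 0, and 74 and 83 (log2 4.81 on HFD, adjusted p = 0.0014). In both genes WT HFD libraries lay at or near 3 reads, so that the size rests on the pseudocount. With a pseudocount of 8 in place of 1 the change on HFD was 3.34 in Ms4a4a and 2.98 in Ms4a6c, both still called. Ms4a6d lay at 16 and 37, 133 and 46, 24 and 7, and 182 and 206 (3.78 on HFD, adjusted p = 0.00087). In these 3 genes the knockout HFD libraries were above all others. Ms4a4d lay at 78 and 86 in WT SD, 69 and 80 in Ad-Yap/Taz-KO SD, 42 and 37 in WT HFD, and 83 and 177 in Ad-Yap/Taz-KO HFD (log2 1.60 on HFD, adjusted p = 0.01). Ms4a6b lay at 21 and 11, 65 and 29, 4 and 28, and 55 and 67 in the same order (2.36 on HFD, adjusted p = 0.037). On the opposite strand, the gene BE692007 covers 53.1% of the exon bases of Ms4a6c, and the Ms4a4 and Ms4a6 genes are close paralogs, so their split is uncertain. Ms4a4b, known from T cells, lay between 3 and 19 and was not called.

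Among the Siglecs, Siglec1 (sialoadhesin, CD169, chr2:131069220-131086765), an adhesion receptor of macrophages, lay at 173 and 135 in WT SD, 523 and 424 in Ad-Yap/Taz-KO SD, 263 and 477 in WT HFD, and 986 and 725 in Ad-Yap/Taz-KO HFD. It rose in the knockout by 1.62 ± 0.28 on SD (log2, adjusted p = 0.0043, not called with no filter) and by 1.25 ± 0.28 on HFD (adjusted p = 0.0046). Unlike the macrophage markers, it was higher on HFD than on SD in WT (log2 1.21 ± 0.28, adjusted p = 0.012), a call that ended when the WT HFD libraries were averaged (adjusted p = 0.053), with no filter, with scaling to the same total, and without either WT SD library or the second WT HFD library (log2 0.78 to 1.64 without single libraries). Siglec15, which pairs with DAP12 and is known from osteoclasts, was listed at 0 in all 4 WT libraries, at 8 and 11 in Ad-Yap/Taz-KO SD, and at 39 and 32 in Ad-Yap/Taz-KO HFD. This is at least 11.8-fold higher on HFD (adjusted p = 0.0034) and at least 2.95-fold higher on SD, where it was not called (adjusted p = 0.13).

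**Figure D2:**
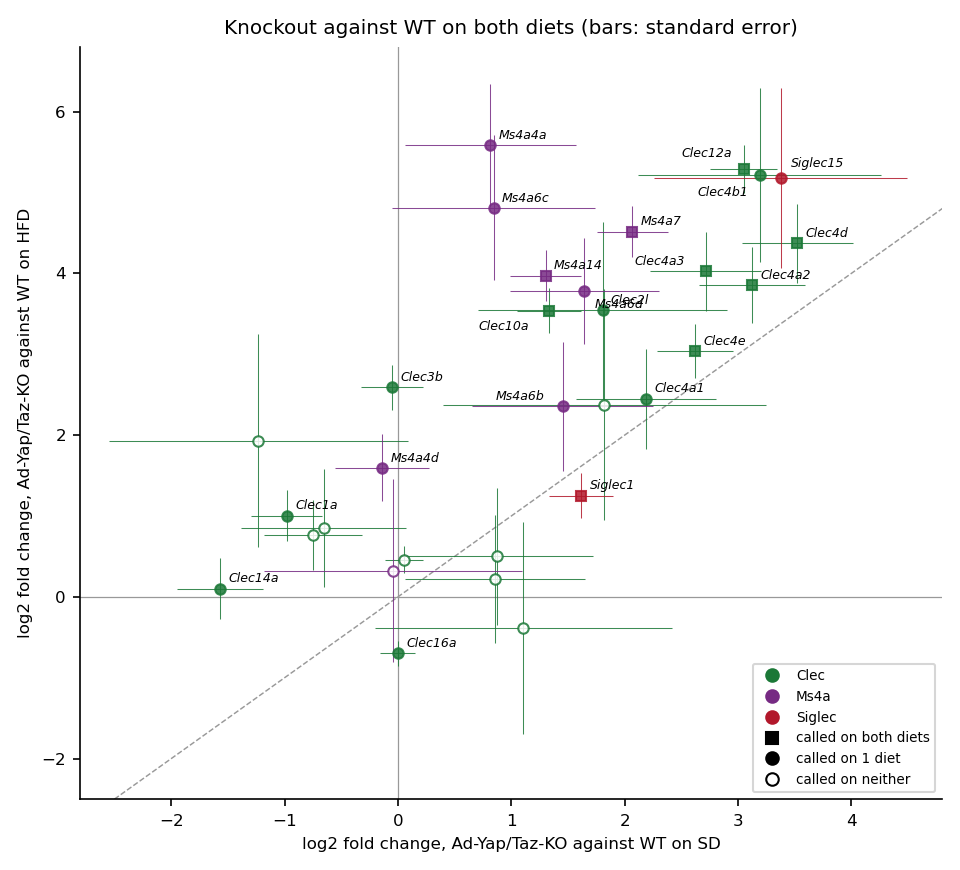
Log2 fold changes of Ad-Yap/Taz-KO against WT on SD (horizontal) and on HFD (vertical) for the 31 tested members, with standard errors as bars, the line of equal change dashed and the family given by colour. Clec12a, at 3.05 and 5.29, and Ms4a7, at 2.07 and 4.52, lie above the line, Siglec1 (1.62 and 1.25) lies under it, and Clec3b, Clec1a and Clec14a lie at or left of 0 on SD.

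The interaction of genotype and diet, which tests whether the knockout effect differs between diets, was called in 10 members, 9 more positive on HFD (8.69% of all genes) and 1 more negative (8.73%). The positive ones were Clec10a, Clec12a, Clec14a, Clec1a, Clec3b, Ms4a14, Ms4a4a, Ms4a6c and Ms4a7, and the negative one was Clec16a. Of the members called, Ms4a4a had the largest fitted difference (log2 4.77 ± 1.07, adjusted p = 0.013), followed by Ms4a6c (3.97 ± 1.27, adjusted p = 0.048), Ms4a14 (2.67 ± 0.44, adjusted p = 0.0041), Clec3b (2.65 ± 0.39, adjusted p = 0.003) and Ms4a7 (2.45 ± 0.44, adjusted p = 0.006). With a pseudocount of 8 the difference was 2.71 in Ms4a4a and 2.30 in Ms4a6c, both of them with WT HFD libraries at or near 3 reads. Without single libraries that of Ms4a6c ran from 2.47 to 5.47. With no filter the calls of both genes ended, and that of Ms4a6c also ended with a pseudocount of 0.5 and with quantile normalization. Among the general macrophage markers, 15 of 16 had a positive interaction that was called, with a median of 1.86. The Dectin-2 cluster genes were not called, with differences between 0.26 (Clec4a1) and 2.03 (Clec4b1). With the WT HFD libraries averaged, Clec14a, Clec16a, Clec1a and Ms4a6c lost the call, and without the second Ad-Yap/Taz-KO HFD library 5 members were called (Clec10a, Clec12a, Clec3b, Ms4a14 and Ms4a7), while over all genes the calls fell from 3274 to 517 and 1411.

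The diet also moved the WT values. In WT, 10 members fell with HFD and 2 rose (Clec16a and Siglec1), against 9.22% and 8.74% of all genes. The ones that fell were Clec10a (log2 -1.29), Clec12a (-1.19), Clec1a (-1.20), Clec2d (-2.02), Clec3b (-1.52), Clec4d (-1.74), Ms4a14 (-1.37), Ms4a4a (-3.65), Ms4a6c (-2.78) and Ms4a7 (-1.54). With a pseudocount of 8 the change was -1.71 in Ms4a4a, -1.27 in Ms4a6c (adjusted p = 0.081) and -1.09 in Clec4d (adjusted p = 0.069), and without single libraries that of Ms4a6c ran from -4.28 to -1.28. Quantile normalization gave -0.98 in Clec4d and -0.79 in Clec12a, neither of them called. Of the general macrophage markers, 13 of 16 fell with HFD in WT, with a median of -1.12. Scaled to the same total count, 14 members fell and 0 rose with the diet in WT (Siglec1 had an unadjusted p under 0.05), since this scaling moves the median of all genes from -0.08 to -0.48. With the WT HFD libraries averaged, or without the second of them, 2 members were called (Clec2d and Ms4a4a, and Clec2d and Ms4a14), and without the first or the second WT SD library 3 and 4. Over all genes the calls fell as well, from 3377 to 539, 787, 628 and 1400 in these 4 fits. In the knockout no member was called higher on HFD (7 had an unadjusted p under 0.05), but without the first Ad-Yap/Taz-KO SD library 4 were (Clec12a, Clec3b, Ms4a14 and Ms4a7), with 591 in place of 72 of all genes. In that library each of the 9 risers on SD, and Clec14a, had a higher value than in the other Ad-Yap/Taz-KO SD library, as did the summed macrophage markers.

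Of the members known from the endothelium, Clec14a fell in the knockout on SD and Clec1a rose on HFD. Clec14a (chr12:58264720-58269258), an endothelial adhesion and angiogenesis receptor, lay at 270 and 184 in WT SD, 109 and 51 in Ad-Yap/Taz-KO SD, 109 and 137 in WT HFD, and 115 and 150 in Ad-Yap/Taz-KO HFD. It fell in the knockout on SD by 1.57 ± 0.38 (log2, adjusted p = 0.033) and differed by 0.10 on HFD (adjusted p = 0.86). Averaging the WT HFD libraries ended this call (adjusted p = 0.067), as did testing with no filter or the SD groups alone. Leaving out single libraries gave -2.11 to -1.03, and the call held in 3 of these 8 fits. Clec1a (CLEC-1, chr6:129424772-129452000) lay at 328 and 278, 183 and 127, 117 and 146, and 195 and 355 in the same order. Its log2 fold change in the knockout was -0.98 on SD and not called (adjusted p = 0.12), and it rose on HFD (1.00 ± 0.32, adjusted p = 0.027). The interaction was 1.99 ± 0.45 (adjusted p = 0.013) for Clec1a and 1.67 ± 0.54 (adjusted p = 0.05) for Clec14a. The 10 endothelial markers (Cdh5, Pecam1, Kdr and others) had a median log2 fold change of -0.66 on SD and 0.67 on HFD. Of them, 8 had a positive interaction that was called (8.69% of all genes). They summed to 34330 and 28646, 26964 and 14870, 17194 and 17786, and 22949 and 35045, and their part in the changes of Clec14a and Clec1a was not tested.

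Clec3b (tetranectin, chr9:123150946-123157430), a secreted protein of stromal cells that binds plasminogen, had the highest level per length in Ad-Yap/Taz-KO HFD (1630 normalized counts per kb). It lay at 887 and 647 in WT SD, 997 and 535 in Ad-Yap/Taz-KO SD, 285 and 244 in WT HFD, and 1356 and 1878 in Ad-Yap/Taz-KO HFD. On SD the genotypes overlapped (log2 -0.05, adjusted p = 0.95), on HFD the knockout was higher by 2.59 ± 0.28 (adjusted p = 2.1e-05), and the interaction was 2.65 ± 0.39 (adjusted p = 0.003). The 10 fibroblast and preadipocyte markers (Col1a1, Col3a1, Pdgfra and others) summed to 42222 and 35872, 61992 and 38012, 25671 and 26307, and 86754 and 97292. On HFD 7 of them rose in the knockout (17.1% of all genes). On SD none was called (3.21% of all genes higher and 1.5% lower), and 3 had an unadjusted p under 0.05. Their part in the change of Clec3b was not tested. Clec11a (osteolectin), another secreted lectin, lay between 5 and 21 and was not called.

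Clec16a (chr16:10545339-10744878) had the smallest ratio of its highest to its lowest library among the 18 members that averaged 50 or more normalized counts. It lay at 879 and 987 in WT SD, 896 and 968 in Ad-Yap/Taz-KO SD, 1468 and 1446 in WT HFD, and 922 and 872 in Ad-Yap/Taz-KO HFD. The WT HFD libraries stood above the 6 others. Against them the knockout had a log2 fold change of -0.70 ± 0.15 (adjusted p = 0.004), and in WT the diet gave 0.64 ± 0.15 (adjusted p = 0.014). Both calls were lost with scaling to the same total count and with quantile normalization. That between diets was also lost with upper-quartile scaling, with the WT HFD libraries averaged (adjusted p = 0.12) and in 3 of the 8 fits without 1 library. The interaction of -0.70 (adjusted p = 0.045) held in 2 of those 8 fits and was lost with the WT HFD libraries averaged (adjusted p = 0.16) and under each of these scalings.

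**Figure D3:**
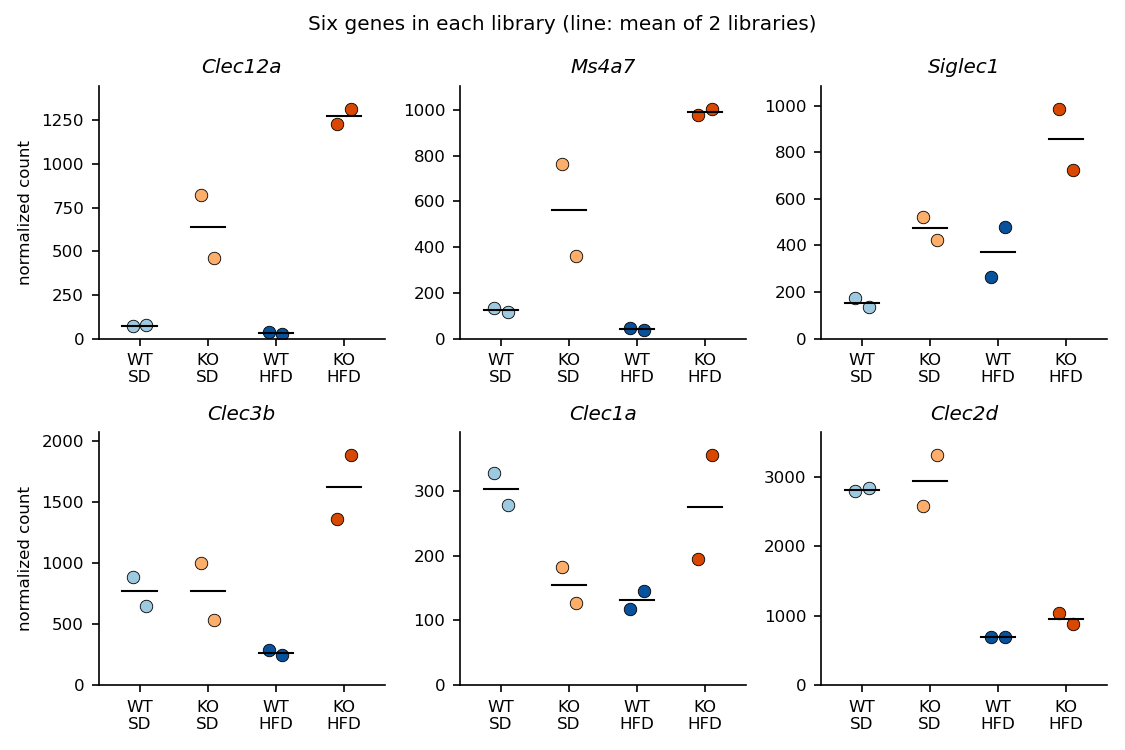
Normalized counts of 6 members in each library (points) with the mean of each group (line), on linear axes from 0. Clec12a and Ms4a7 are highest in Ad-Yap/Taz-KO HFD and lowest in WT HFD, Siglec1 is higher in WT HFD than in WT SD, Clec3b and Clec1a separate the genotypes on HFD, and Clec2d separates the diets.

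The members were also set against the macrophage markers, which moves each of them by the same amount within a comparison and leaves their spread unchanged. When each library was scaled to the mean log2 level of its 16 general macrophage markers, 1 member was higher and 16 were lower in Ad-Yap/Taz-KO on HFD, against 0.324% and 89.9% of all genes. The one above was Clec12a (log2 1.22 ± 0.39, adjusted p = 0.002). Ms4a4a had a larger value with a wider error (1.52 ± 0.81, adjusted p = 0.067) and was not called, nor were Clec4b1 (1.15 ± 1.26), Siglec15 (1.12 ± 1.48) and Ms4a6c (0.74 ± 0.79). Ms4a7 (0.45 ± 0.38, adjusted p = 0.25), Clec4d (0.31 ± 0.58), Clec4a3 (-0.04 ± 0.56), Ms4a14 (-0.09 ± 0.42), Clec4a2 (-0.21 ± 0.57), Ms4a6d (-0.28 ± 0.58) and Clec10a (-0.53 ± 0.39, adjusted p = 0.19) did not pass the test either. Siglec1 was lower relative to the markers (-2.81 ± 0.35, adjusted p = 1.7e-15), as were Clec4e (-1.03 ± 0.39, adjusted p = 0.01), Clec4a1 (-1.62 ± 0.58) and Ms4a6b (-1.71 ± 0.71). On SD, Clec12a (0.84 ± 0.39, adjusted p = 0.037) and Clec4d (1.31 ± 0.58, adjusted p = 0.027) were higher and 11 members lower (0.335% and 84.7% of all genes), with Clec10a (-0.88, adjusted p = 0.03) and Ms4a14 (-0.91, adjusted p = 0.035) among the latter. Of 9 markers of resident macrophages (Mrc1, Gas6, Stab1, F13a1 and others) 3 rose on HFD (Folr2, Mrc1 and Stab1) without this scaling, beside 17.1% of all genes, and of 12 markers of lipid-associated macrophages (Gpnmb, Plin2, Lgals3 and others) 11 rose and Lpl fell.

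**Figure D4:**
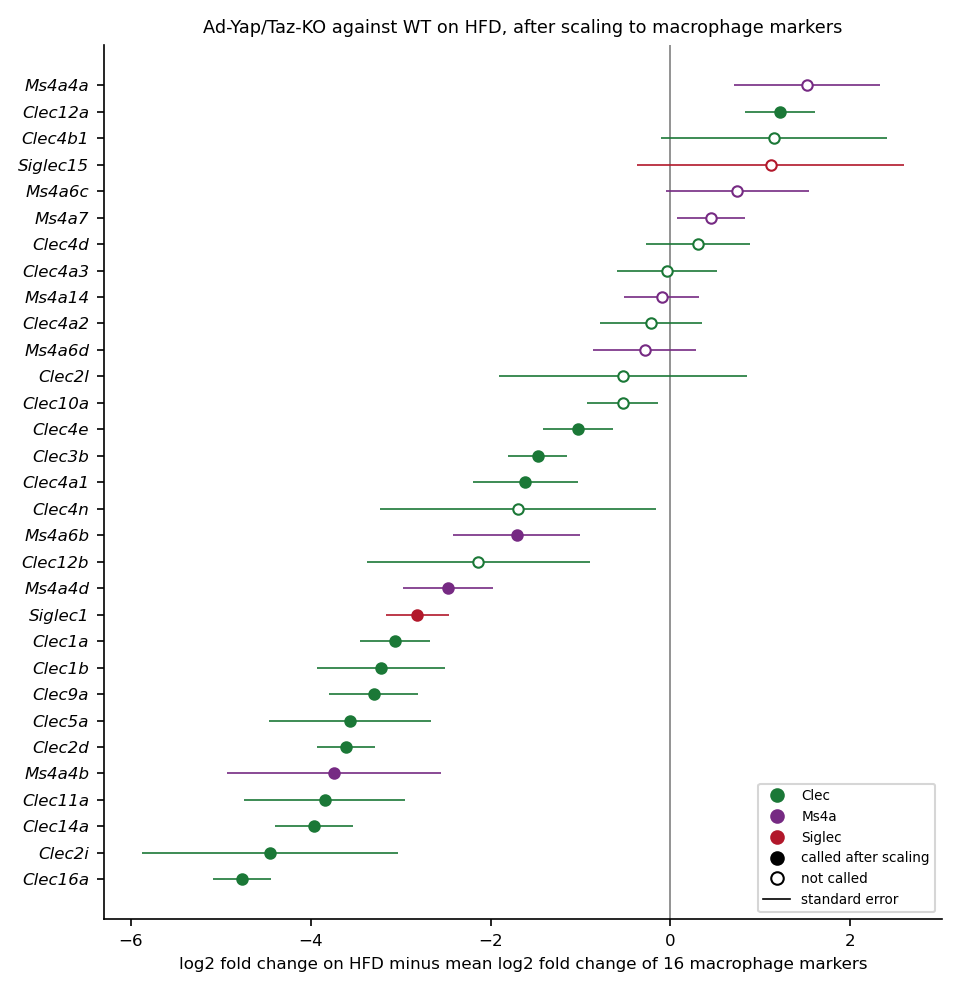
Log2 fold change between genotypes on HFD (Ad-Yap/Taz-KO against WT) minus the mean log2 fold change of 16 macrophage markers (4.07), with standard errors, for the 31 tested members in order, filled where called. Clec12a is the filled point right of 0 at 1.22, and Siglec1 lies at -2.81 beside Clec1a.

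The genes that carry the signals of these receptors moved with them. Of 17 tested adaptors, kinases and phosphatases, 15 rose and 1 fell in the knockout on HFD (17.1% and 15.1% of all genes), with a median of 3.47 against 0.09 over all genes, and 12 rose on SD (3.21% of all genes), with a median of 1.39 against -0.01. Tyrobp (DAP12) lay at 63 and 28 in WT SD, 481 and 298 in Ad-Yap/Taz-KO SD, 20 and 12 in WT HFD, and 788 and 568 in Ad-Yap/Taz-KO HFD (log2 3.14 on SD and 5.34 on HFD). Fcer1g (FcRgamma) rose by 2.85 and 4.40 and Syk by 2.74 and 4.47 on the log2 scale. Card9 lay at 40 and 32, 69 and 54, 12 and 10, and 112 and 107, and rose on HFD (3.21, adjusted p = 0.00024) while its change on SD was not called (0.75, adjusted p = 0.45). Of the inhibitory side, Ptpn6 (SHP-1) rose by 2.19 on SD and 4.99 on HFD, whereas Ptpn11 (SHP-2), which most cells express, fell on HFD (-1.28). These genes are expressed in many leukocytes.

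Lectins and Siglecs with other symbols were counted from a separate list of 26 tested genes, of which 9 rose and 1 fell on HFD (17.1% and 15.1% of all genes), with a median of 0.84 against 0.09 over all genes. Mrc1, the macrophage mannose receptor, rose by 1.18 on SD and 2.57 on HFD (log2), and Thbd (thrombomodulin), which carries a lectin-like domain, fell by 1.12 and 1.395. Cd22, another Siglec, lay at 9 and 7 in WT SD, 78 and 50 in Ad-Yap/Taz-KO SD, 0 and 1 in WT HFD, and 76 and 105 in Ad-Yap/Taz-KO HFD, and was called higher on both diets. On SD its log2 fold change was 2.83, a call that was lost in 6 of the 8 fits without 1 library, and on HFD no fold is given because WT lay under 3 reads. Of 17 enzymes and transporters that make, attach or remove sialic acid, the ligand of Siglecs, 6 rose and 3 fell on HFD. This stood beside 17.1% and 15.1% of all genes, with a median of 0.45 against 0.09. The largest rises were those of St6galnac4 (2.91) and St6gal1 (2.19), and the largest fall was that of St3gal3 (-1.63). On SD 2 rose, beside 3.21% of all genes.

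The remaining 17 members had a mean under 5 normalized counts, with 18 as the highest single value (in Clec18a and Ms4a1). They were Clec18a, Clec2e, Clec2g, Clec3a, Clec4a4, Ms4a1, Ms4a12, Ms4a15, Ms4a2, Ms4a3, Ms4a4c, Ms4a5, Ms4a8a, Siglece, Siglecf, Siglecg and Siglech. Among them are the defining genes of other leukocytes. Ms4a1 (CD20 of B cells) lay at 2 and 0, 18 and 11, 2 and 1, and 1 and 3, Ms4a2 of mast cells reached 7 in 1 Ad-Yap/Taz-KO HFD library and at most 1 elsewhere, Ms4a3 of granulocyte and monocyte progenitors was listed at 1 in 1 library and 0 in the others, Siglecf of eosinophils did not exceed 14, and Siglech of plasmacytoid dendritic cells did not exceed 3. Siglece, an inhibitory Siglec of myeloid cells, was listed at 12 and 7 in Ad-Yap/Taz-KO HFD and at 5 or less elsewhere. At these depths differences were not detectable where both groups compared lay at or near 3 reads. With no filter, Clec2e was called lower in the knockout on HFD (4 and 14 in WT HFD, 0 and 0 in Ad-Yap/Taz-KO HFD).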

How the data were processed

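RNA-seq libraries came from total RNA of isolated white adipocytes, depleted of ribosomal RNA and made with a stranded kit. Per the labels and the study's methods, the authors trimmed reads with Reaper, aligned them with STAR 2.5.2b to GRCm38, and counted exon reads with featureCounts 1.5.1 and without reads of several genes or places. The deposited values are a score here, because the authors divided the counts of each library by 1 size factor and rounded them to whole numbers. The authors used DESeq2 1.14.1, which needs raw counts and was not run here.

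Groups came from the labels. Genes with a mean of at least 5 (18800 of 30387) were tested with limma 3.58.1 (R 4.3.3, eBayes with trend) on log2(normalized count + 1), with a pseudocount of 1, in 1 fit of 4 group means (4 residual and 8.59 prior degrees of freedom) and Benjamini-Hochberg adjustment over all genes. Standard errors are those of the fit. The test was checked on simulated data. Single genes cannot be tested by permutation here, since 2 libraries against 2 give p = 0.333 at best. The p-values measure the spread between these libraries.

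All 48 members were found in the GENCODE vM21 annotation, which gave exon lengths and overlaps, and 18 gene lists (markers of 15 cell types, receptor signalling, other lectins, sialic acid enzymes) were counted. The members and lists were chosen with earlier results of these data known. Values in every library are given for members called in at least 1 comparison or with a mean of at least 50, and the other members by their ranges. Per list, up to 4 genes with the highest mean could be named, with signalling genes and defining markers near 0. Genes named beyond these (Cd72, Klrb1b, Mgl2, Mertk, the sialic acid enzymes, and single members of counts) were chosen after their values were seen, and some markers are named without values to show what a list holds.

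The alternatives were pseudocounts of 0.5 and 8, a filter at a mean of 50 or none, scaling by total, by upper quartile or by the macrophage markers, quantile normalization, a fit of the 2 groups compared, robust eBayes, the replicate block, averaged WT HFD libraries, and leaving out each library.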

Additional observations from a re-analysis of the deposited data

Results flagged for a closer look

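The effect of the knockout differed between HFD and SD by the interaction test (limma, adjusted p of at most 0.05) in 10 members, and each is given as the log2 effect on HFD minus that on SD. The values were 4.77 for Ms4a4a, 3.97 for Ms4a6c, 2.67 for Ms4a14, 2.65 for Clec3b, 2.45 for Ms4a7, 2.24 for Clec12a, 2.20 for Clec10a, 1.99 for Clec1a, 1.67 for Clec14a and -0.70 for Clec16a. When the WT HFD libraries were averaged, the adjusted p was 0.14 for Clec14a, 0.16 for Clec16a, 0.064 for Clec1a and 0.074 for Ms4a6c, and the 6 others were called. General macrophage markers (mean interaction 1.86) and, for Clec1a and Clec14a, endothelial markers (median 1.39) moved in the same direction as the 9 positive values and opposite to Clec16a, and their part in these differences was not tested.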

How the results depend on the processing

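The count on HFD (21 members) stayed within 1.5 times under every alternative and was 16 to 21 without single libraries, but scaling to the macrophage markers turned it to 1 higher and 16 lower. On SD (10 members) it was 6 with no filter and 5 to 10 without single libraries. In WT between diets (12) it was 7 with no filter, 7 with quantile normalization, 4 scaled to the macrophage markers, 2 with the WT HFD libraries averaged and 2 to 12 without single libraries. In the knockout between diets (1) it was 2 with a pseudocount of 8, 0 with no filter, 0 in a fit of the 2 groups alone, 4 scaled to the macrophage markers and 1 to 5 without single libraries. The interaction (10) was called in 5 members with no filter, 5 scaled to the macrophage markers, 6 with the WT HFD libraries averaged and 5 to 11 without single libraries. The calls over all genes moved too, in WT between diets from 3377 to 1701 with no filter, 2186 with quantile normalization and 539 with the WT HFD libraries averaged, on SD from 886 to 438 with no filter, in the knockout between diets from 202 to 330 with a pseudocount of 8, 3 with no filter and 0 in the fit of 2 groups (2059 at an unadjusted p under 0.05), and in the interaction from 3274 to 721 with no filter and 517 with the WT HFD libraries averaged. Beside the counts of 0 members from limma, 11 members had an unadjusted p under 0.05 in each. With no filter the gene set includes Clec2e as a second member that fell on HFD.

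Scaled to the macrophage markers, 18 called values changed sign. On HFD these were Clec10a (-0.53), Clec1a (-3.06), Clec2l (-0.52), Clec3b (-1.47), Clec4a1 (-1.62), Clec4a2 (-0.21), Clec4a3 (-0.0398), Clec4e (-1.03), Ms4a14 (-0.0927), Ms4a4d (-2.47), Ms4a6b (-1.71), Ms4a6d (-0.28) and Siglec1 (-2.81). On SD they were Clec10a (-0.88), Ms4a14 (-0.91), Ms4a7 (-0.14) and Siglec1 (-0.59), and in the interaction Clec14a (-0.19). This follows from the construction, since the mean log2 change of the markers (4.07 on HFD, 2.21 on SD, 1.86 in the interaction) is subtracted. Of the recomputed values of 54 calls, 860 kept direction and call, and 182 kept the direction only.

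The replicate number as a block gave 21, 9, 12, 1 and 8 members called for the 5 comparisons. The numbers do not pair the libraries (correlations of deviations -0.107 to 0.04), so the block is given only here. The 2 libraries of a group limit precision, and differences were not detectable where both groups compared lay under 3 reads.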

Other observations

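Markers of other cell types that carry members of these families were counted in the same fit, and their part in the members' changes was not tested. Of 7 tested mast cell and basophil markers, 6 rose in Ad-Yap/Taz-KO on HFD (17.1% of all genes). On SD 0 rose (3.21% of all genes), with 2 at an unadjusted p under 0.05. Among the risers, Cpa3 lay at 108 and 48 normalized counts against 0 and 0 in WT HFD and 7 and 2 in Ad-Yap/Taz-KO SD. Cma1, Mcpt4 and Tpsb2 reached the mean of 5 only through their Ad-Yap/Taz-KO HFD values. Kit, the 1 tested marker not called on HFD, lay at 347 and 304 in WT HFD and 232 and 334 in Ad-Yap/Taz-KO HFD. The basophil gene Mcpt8 did not exceed 1. Of 8 platelet markers, 5 rose on HFD and 0 on SD (2 at an unadjusted p under 0.05), beside the same shares of all genes. Among them, Pf4 lay at 193 and 301 in Ad-Yap/Taz-KO HFD against 23 and 33 in WT HFD.

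Markers of lymphocytes and granulocytes are given beside the 17.1% of all genes that were called higher and the 15.1% called lower on HFD. Of 6 tested T and NK cell markers 1 rose on HFD (Cd4), and Cd3e did not exceed 12. Of 9 B cell markers 2 rose (Cd22 and Cd79a) and 1 fell on HFD (Ighm, with knockout libraries at 4186 and 919 and WT libraries at 8027 and 8008). Of 4 tested neutrophil markers 1 rose (Csf3r), and Ly6g did not exceed 2. Of 2 tested eosinophil markers 1 rose on both diets (Ccr3).

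The next counts also stand beside 17.1% of all genes called higher and 15.1% called lower on HFD. Of 10 markers of conventional dendritic cells 3 rose on HFD (Batf3, Ccl22 and Fscn1) and 1 fell (Itgae). The 6 others, Flt3, Zbtb46 and Xcr1 among them, were not called. Of 5 tested markers of plasmacytoid dendritic cells 1 rose (Pacsin1, which reached the mean of 5 only through its Ad-Yap/Taz-KO HFD values) and 4 were not called. Of 7 tested markers of monocytes 3 rose (Ace, Fcgr4 and Plac8). Of 12 adipocyte markers 10 fell on HFD (15.1% of all genes). On SD 0 were called (3.21% of all genes higher and 1.5% lower) and 0 had an unadjusted p under 0.05.

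Among lectins with other symbols, Cd72 is an inhibitory receptor of B cells and macrophages. It lay at 35 and 15 in WT SD, 74 and 72 in Ad-Yap/Taz-KO SD, 17 and 12 in WT HFD, and 497 and 324 in Ad-Yap/Taz-KO HFD. Cd72 was 1 of 2 genes of that list that rose with HFD in the knockout (log2 2.44), beside 0.383% of all genes.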
